A study of Mus musculus with 23 samples.

Results

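A set of 9 genes of the oligodendrocyte lineage was followed through axonal and cell-body RNA of mouse hippocampal cultures under a magnetic pulling force. They were chosen by name and matched by Ensembl gene ID, which gave 9 of the 55487 gene IDs in the count tables. Olig1, Olig2, Sox10, Pdgfra and Cspg4 belong to the precursor stage of the lineage, and Mbp, Cnp, Mag and Mobp to differentiation and myelin. Hippocampal cells of C57Bl/6 pups taken at postnatal day 1 (P1) were seeded on the cell-body side of microfluidic chambers on the day counted as 0 in vitro (DIV0). All cultures, controls included, were given medium with magnetic nanoparticles (MNPs) at 5 µg/ml. Stretched cultures were held in a magnetic field gradient of 50 T/m from DIV1 to DIV6, and control cultures had a null gradient. RNA labelled as a pure axonal preparation gave 5 control and 6 stretched libraries. RNA labelled as the total cell culture, called soma here, gave 6 control and 6 stretched libraries. The labels do not say whether replicates were separate cultures or litters, so p-values measure only the spread between these 23 libraries.

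Oligodendrocytes arise from dividing precursors that carry the PDGF receptor alpha (Pdgfra) and the proteoglycan NG2 (Cspg4), and that grow in response to PDGF-A. The transcription factors Olig1, Olig2 and Sox10 hold cells in the lineage and, with Sox10 as a direct activator, turn on the myelin genes as the cells differentiate. In the hippocampus myelination takes place mainly after birth, and neuronal cultures from newborn brain usually hold some glia.

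The upstream DNA of 3 myelin genes is shown first, because Cnp had the highest and Mag and Mobp were among the lowest RNA levels of the members. Each run below is 200 bases long and reaches from 250 to 51 bases before the RefSeq start of the gene, 5′ to 3′ on the strand of the gene, in build GRCm38.p6. Capitals mark CTTTGT or its reverse complement ACAAAG, a core read by SOX factors, and this motif was chosen after the sequences had been seen.
Mobp: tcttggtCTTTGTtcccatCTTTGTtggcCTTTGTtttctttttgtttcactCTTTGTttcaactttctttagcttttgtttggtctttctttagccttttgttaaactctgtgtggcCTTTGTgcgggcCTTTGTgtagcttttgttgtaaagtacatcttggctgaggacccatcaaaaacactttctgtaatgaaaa
Mag: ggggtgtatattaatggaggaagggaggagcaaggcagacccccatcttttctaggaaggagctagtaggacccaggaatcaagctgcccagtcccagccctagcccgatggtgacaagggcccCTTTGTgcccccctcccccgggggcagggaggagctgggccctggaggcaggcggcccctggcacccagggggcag
Cnp: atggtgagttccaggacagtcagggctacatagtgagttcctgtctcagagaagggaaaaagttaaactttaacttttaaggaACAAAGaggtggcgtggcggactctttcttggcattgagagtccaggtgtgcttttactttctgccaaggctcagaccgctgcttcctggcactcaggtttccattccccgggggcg
The Mobp run lies at chr9:120149492-120149691 on the plus strand and holds 6 matches. The Mag run lies at chr7:30914914-30915113 on the minus strand and holds 1 match, as does the Cnp run at chr11:100574689-100574888 on the plus strand. Over both strands, 13.6% of 32851 RefSeq upstream windows of the same length held at least 1 match, and the Mobp window was the only one of the 32851 with 6. The windows of Olig2, Pdgfra and Cspg4 held 0. The E-box CAGCTG, which reads the same on both strands, was found in 10.3% of these windows and in none of the 6 members matched in the table (Olig2, Pdgfra, Cspg4, Cnp, Mag and Mobp). A match is a run of letters and not a measured binding site.

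The genes lie on 7 chromosomes, and only Olig1 and Olig2 are neighbours, 41.1 kb apart on chromosome 16. In the GENCODE annotation of GRCm38 (mm10), Olig1 spans chr16:91269772-91271933, Olig2 chr16:91225457-91228677, Pdgfra chr5:75152292-75198215, Cspg4 chr9:56865033-56899870, Cnp chr11:100574904-100591729 and Mobp chr9:120149707-120181484, all on the plus strand. Sox10 (chr15:79154908-79165240) and Mag (chr7:30899176-30914873) lie on the minus strand, and Mbp on chromosome 18. Olig1 shares 7.26% of its exon bases with Gm15966 on the opposite strand, Cnp 4.23% with Dnajc7, Pdgfra 6.50% with 3 small genes and Mobp 1.15% with Gm38642. Reads over those bases cannot be assigned with certainty, since the strand setting of the counting is not given in the sources used here. The Mbp gene also makes golli transcripts, which are found outside oligodendrocytes, and a count per gene does not separate them from myelin transcripts.

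Libraries held between 16369153 and 43048953 counts, and 3 counts, used here as the detection floor, corresponded to 0.0697 to 0.183 counts per 1000000 counts of the library (CPM). Between 22452 and 24575 genes had a count in a soma library and between 4263 and 10242 in an axonal library. Soma libraries fell into 2 sets by the Y-linked gene Eif2s3y. Control replicates 1, 2 and 3 and stretched replicates 1, 2 and 8 had 24.7 to 28.7 CPM, and control and stretched replicates 4, 5 and 6 had 5.39 to 13.2 CPM. The labels name no such sets, and each set holds 3 control and 3 stretched libraries. The summed level of 8 astrocyte markers was 10726 to 14076 CPM in the set with higher Eif2s3y and 5120 to 6310 CPM in the set with lower Eif2s3y.

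Most of the lineage genes were scarce, also in somata, while Cnp was well expressed and Olig1 ranged from 2.64 to 51.5 CPM. Together these 2 genes held between 73.0% and 92.5% of the counts of all 9 members in each soma library. At the low end, in stretched soma 5, Cnp held 70.2%, Mbp 17.0% and Olig1 2.79%. In stretched somata the median was 6.98 CPM for Olig1 and 13.0 CPM for Mbp. Per kilobase of exon, the median level over the 12 soma libraries was 23.7 CPM per kb for Cnp, 9.76 for Olig1, 1.51 for Mbp, 0.583 for Cspg4, 0.238 for Pdgfra, 0.126 for Olig2, 0.0105 for Mag and 0 for Mobp and Sox10. The ranges over libraries of neighbours in this order overlapped for Cspg4 with Pdgfra, for Pdgfra with Olig2, for Olig2 with Mag and for Mag with Mobp. Cnp (17.6 to 34.6 CPM per kb) overlapped Olig1 (1.22 to 23.8), and Olig1 overlapped Mbp (0.892 to 2.07). Only Mbp and Cspg4 (0.279 to 0.691) were adjacent without overlap.

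**Figure D1:**
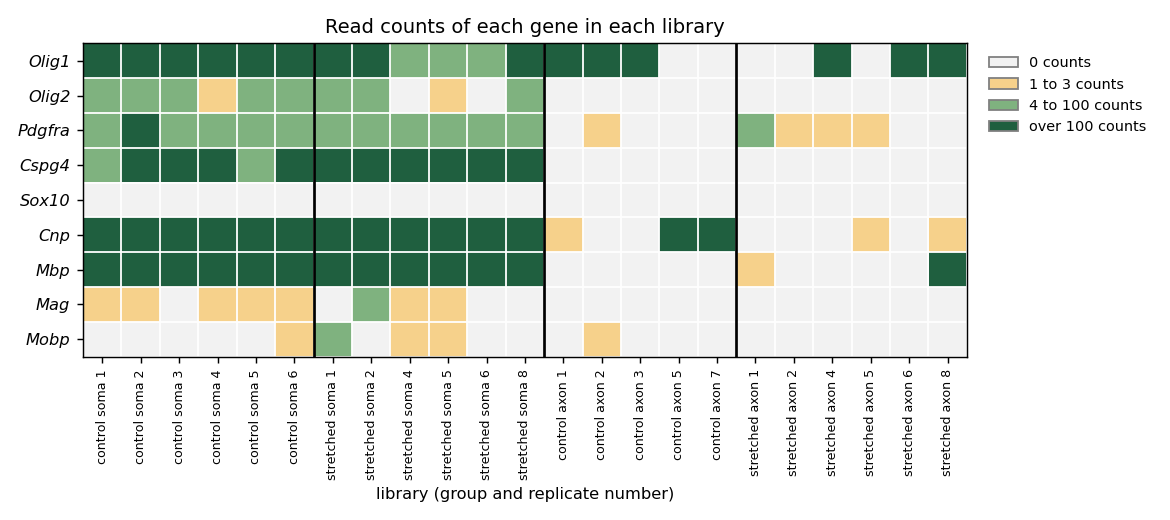
Each cell is the read count of one gene (row) in one library (column), in 4 classes from 0 to over 100 counts; black lines part the 4 groups. Soma columns are filled for Olig1, Pdgfra, Cspg4, Cnp and Mbp, the Sox10 row is empty, and the axonal columns hold 1 to 3 of the 9 genes each.

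The members Sox10, Olig2, Mag and Mobp were at or near the floor. Mog, a myelin gene outside the 9 members, was above the floor in all soma libraries, as given below. Sox10, the transcription factor kept through the whole lineage, had 0 counts in all 23 libraries, which allows at most 0.0697 to 0.183 CPM at 3 counts. Olig2, the factor that specifies the lineage, had 6, 6, 11, 2, 9 and 17 counts in control somata 1 to 6. It had 11, 9, 0, 3, 0 and 13 counts in stretched somata 1, 2, 4, 5, 6 and 8, and 0 in all 11 axonal libraries. Its control and stretched values overlapped. Mag, an adhesion protein of the myelin layer facing the axon, had 0 to 2 counts in control somata and 0 to 5 in stretched somata. Mobp, a protein of compact central myelin, had 1 count in 1 of 6 control somata and 4, 1 and 3 counts in 3 of 6 stretched somata. The libraries held RNA of some genes named for the lineage, with little or none of Sox10, Olig2, Mag and Mobp, and the genes are described one by one below without a cell type being assigned.

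The number of members with at least 1 count was 6 to 8 in control somata, 5 to 8 in stretched somata, and 1 to 3 in the libraries of either axonal group. Means were 7, 6.67, 1.60 and 1.83 genes. With every library thinned to the 16369153 counts of the smallest one, the means were 6.81, 6.50, 1.51 and 1.55 genes.

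**Figure D2:**
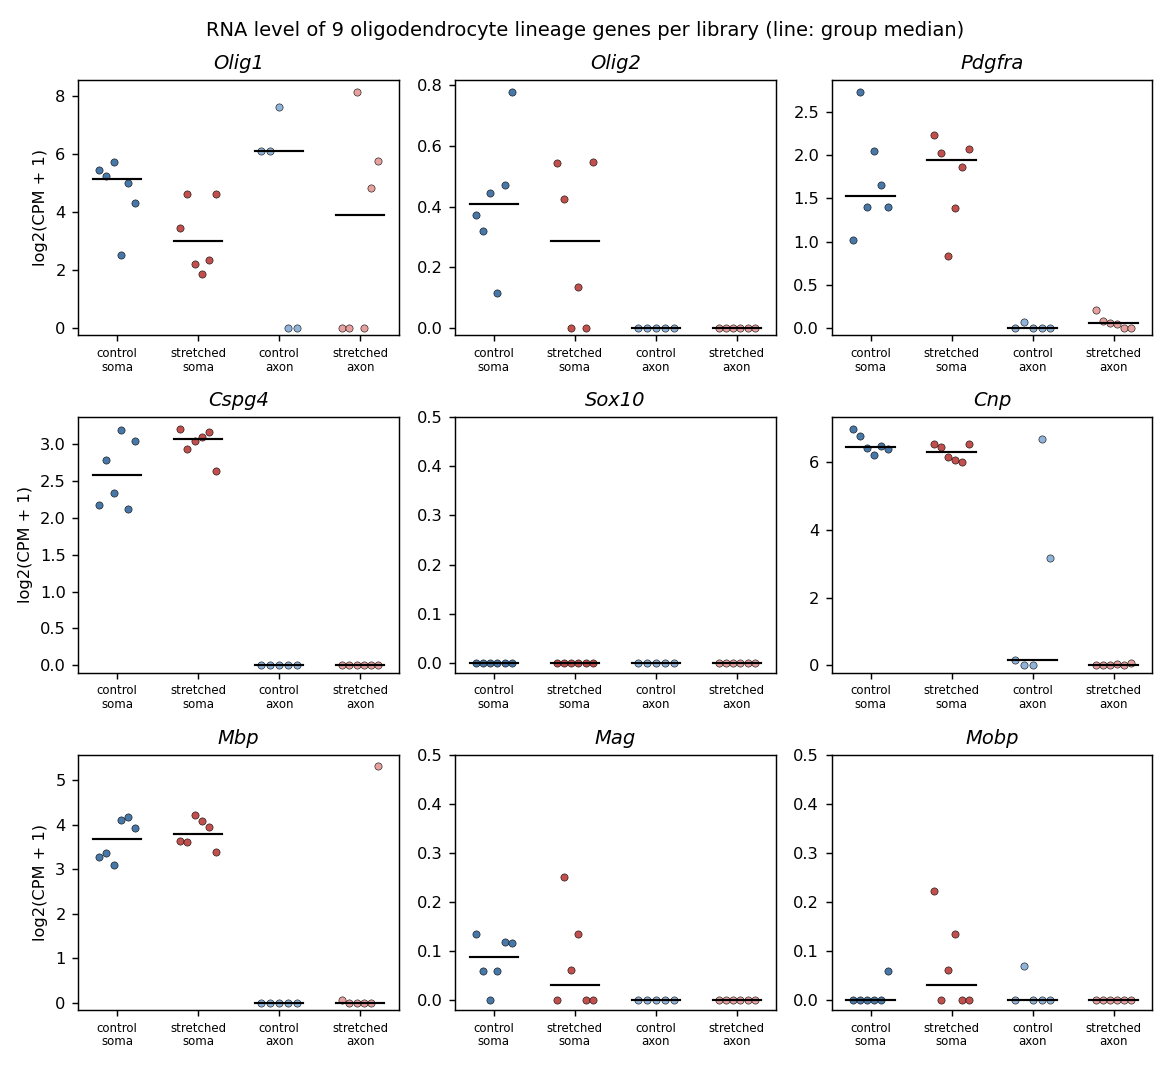
Each panel shows log2(CPM + 1) of one gene, with a point per library in the 4 groups (6 control soma, 6 stretched soma, 5 control axon, 6 stretched axon) and a line at the group median; vertical scales differ between panels. Stretched somata lie mostly under control somata for Olig1 with overlap, and most axonal points are at or near 0, with higher points for Olig1 (27.4 to 281 CPM), Cnp (8.04 and 103 CPM) and Mbp (38.8 CPM) in a few libraries.

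Stretch was compared in somata first. None of the 5 members with enough counts to be tested (Olig1, Pdgfra, Cspg4, Mbp and Cnp) passed an adjusted p of 0.05 in edgeR's quasi-likelihood test over 15632 genes, while 25.1% of all genes tested passed, 11.2% higher and 13.9% lower with stretch. At an unadjusted p under 0.05 there were 2 of 5 members, Olig1 and Cnp, beside 39.4% of all genes tested. DESeq2 called 0 members and 34.3% of all genes. In bulk RNA, fewer cells of a type and less RNA per cell cannot be told apart.

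Olig1, a basic helix-loop-helix factor of precursors and of myelin repair, had the largest difference of the 5. Its level was 42.8, 36.7, 51.5, 4.73, 30.7 and 18.9 CPM in control somata 1 to 6. It was 9.87, 23.5, 3.66, 2.64, 4.1 and 23.3 CPM in stretched somata 1, 2, 4, 5, 6 and 8. Control replicate 4 lay inside the stretched range, and the other 5 control libraries were spread from 18.9 CPM, also inside that range, to 51.5 CPM. The log2 fold change was -1.52 (SE 0.62, n = 6 and 6) with an adjusted p of 0.0862 in edgeR. Olig1 was lower with stretch in 5 of 5 pairs of libraries with the same number, a count not made for all genes. Each of these pairs lies within a single set by Eif2s3y, so this order follows from the one given next.

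Within each set of libraries by Eif2s3y, every stretched library had less Olig1 than every control library. In the set with higher Eif2s3y the control libraries had 36.7 to 51.5 CPM and the stretched ones 9.87 to 23.5 CPM. In the set with lower Eif2s3y the ranges were 4.73 to 30.7 and 2.64 to 4.1 CPM. Among the 13916 genes that averaged 1 CPM or more over the somata, 4.63% were lower and 5.69% higher without overlap in both sets, and 2.49% were lower and 1.97% higher without overlap over all 12 libraries. With the set as a covariate, edgeR gave Olig1 a log2 fold change of -1.80 (adjusted p 0.0123) and Cnp -0.31 (adjusted p 0.0211). In that fit 2 of 5 members were called, both lower, beside 33.9% of all genes called and 17.9% called lower. The sets were defined from these data, and the main fit called 0 of 5 members. In the higher set alone, edgeR gave Olig1 -1.21 (SE 0.31, adjusted p 0.0248), 1 of 5 members, with 29.2% of all genes called and 12.7% called lower. In the lower set alone it gave -2.42 (SE 0.61, adjusted p 0.272), with 0 members and 0% of all genes called. The effect of stretch on Olig1 in the lower set minus that in the higher set was -1.16 (SE 0.81) with an adjusted p of 0.744 in edgeR, and 0 of 15632 genes passed that test, with 1169 at an unadjusted p under 0.05.

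Control soma replicate 4, the control library with the least Olig1, decided the side of the threshold. Without it, edgeR gave Olig1 -1.75 (adjusted p 0.0311) and Cnp -0.38 (adjusted p 0.0355), 2 of 5 members, while 38.3% of all genes were called and 20.1% called lower. In the lower set without this library, a fit added after the data were seen, the values were -2.90 (adjusted p 0.00038) for Olig1 and -0.42 (adjusted p 0.0127) for Cnp by edgeR, 2 of 5 members, with 27.5% of all genes called and 14.2% called lower. Leaving out the control library with the least Olig1 enlarges the fall of Olig1 by construction, so these fits do not bear on whether Olig1 fell. With the replicate number as a block, which was not shown to pair the libraries, 2 of 5 members were lower and 20.7% of all genes were called. GC content moved with the effect of stretch across genes: the median log2 fold change went from 0.19 in 1107 genes with at most 40% GC to -0.26 in 646 genes above 60%, and the longest Olig1 transcript has 61.1% GC. With offsets for transcript length and GC content, edgeR gave Olig1 -1.21 (adjusted p 0.181) and Cnp -0.19 (adjusted p 0.292).

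**Figure D3:**
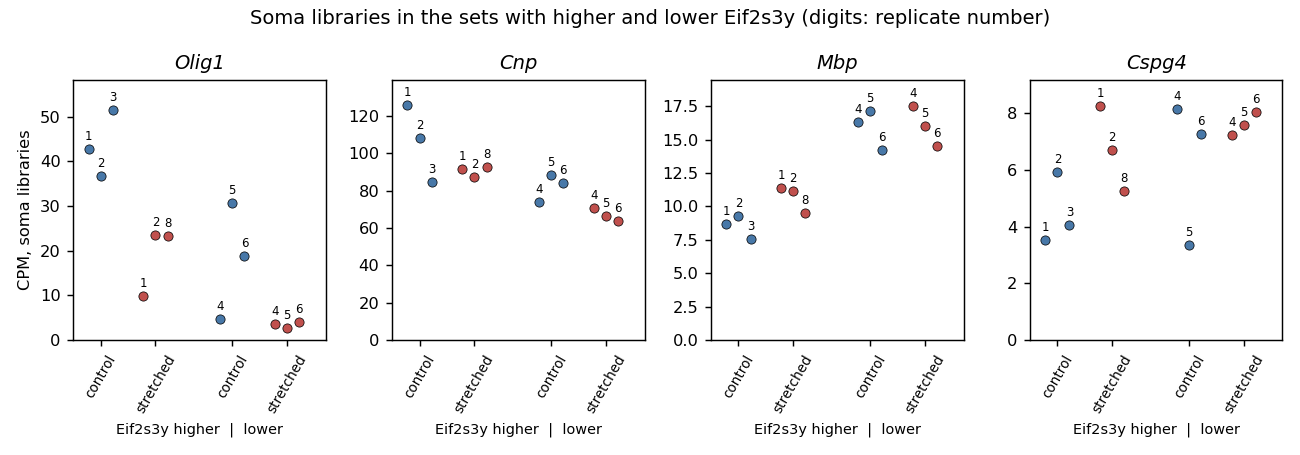
Points are CPM of Olig1, Cnp, Mbp and Cspg4 in each of the 12 soma libraries, parted into the sets with higher and lower Eif2s3y and into control (blue) and stretched (red); digits are replicate numbers. Olig1 of stretched libraries is under that of control libraries within each set, and Mbp is 7.55 to 11.4 CPM in the set with higher Eif2s3y against 14.2 to 17.5 CPM in the other.

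Cnp, an enzyme of non-compact myelin that is also made early in the lineage, was the member with the highest level in somata. It had 126, 108, 85.0, 74.2, 88.6 and 84.0 CPM in control somata 1 to 6, and 91.7, 87.3, 70.8, 66.3, 64.0 and 92.9 CPM in stretched somata 1, 2, 4, 5, 6 and 8. The groups overlapped over all 12 libraries, and within the lower set every stretched library was under every control library, as were 8.91% of the 13916 genes averaging 1 CPM or more. The log2 fold change was -0.30 (SE 0.14), and its adjusted p in edgeR was 0.114. In the higher set alone it was -0.23 (edgeR adjusted p 0.223) and in the lower set alone -0.32 (edgeR adjusted p 0.272). Cnp was lower with stretch in 5 of 5 same-numbered pairs, a count not made for all genes. The pairs numbered 4, 5 and 6 lie in the lower set, so their order follows from the one just given. The numbers were not shown to pair the libraries.

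Mbp, a main protein of compact myelin, differed between the sets of libraries more than with stretch. Its level had a lowest value of 7.55, a median of 11.7 and a highest value of 17.2 CPM in control somata, and 9.51, 13.0 and 17.5 CPM in stretched somata. The log2 fold change with stretch was 0.09 (SE 0.22), with an adjusted p of 0.789 in edgeR. In the higher set it was 0.33 and in the lower set -0.02, with edgeR adjusted p of 0.167 and 0.965. Every stretched library of the higher set had more Mbp than every control library, as had 27.4% of the 13916 genes. All 6 libraries with lower Eif2s3y had more Mbp than all 6 with higher Eif2s3y. This held for 1 of the 5 members and for 1.79% of the 13916 genes, while 3.62% had the opposite order. The Y-linked gene defined these sets after the data were seen, and no test was made between them.

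Pdgfra and Cspg4, the surface markers of precursors, were low and did not pass the test. Pdgfra had a lowest value of 1.03, a median of 1.89 and a highest value of 5.66 CPM in control somata and 0.784, 2.85 and 3.70 CPM in stretched somata. The log2 fold change was -0.07 (SE 0.41), with an adjusted p of 0.918 in edgeR, and it was 0.26 in the higher and -0.48 in the lower set (edgeR adjusted p 0.751 and 0.567). Cspg4 had 3.34, 4.99 and 8.15 CPM in control somata and 5.25, 7.41 and 8.24 CPM in stretched somata. Its log2 fold change was 0.38 (SE 0.23), with an adjusted p of 0.238 in edgeR, and it was 0.58 in the higher and 0.26 in the lower set (edgeR adjusted p 0.127 and 0.645). Both genes are also known from other cells, Pdgfra from fibroblasts and Cspg4 from pericytes. All 8 markers fixed for fibroblasts and pericytes had counts in somata. Together they summed to 252 to 395 CPM in controls and 303 to 383 CPM with stretch, and such a sum cannot be set against a single gene. Of these markers 6 were tested for stretch in somata, and 1 rose and 1 fell. Over all genes tested, 11.2% rose and 13.9% fell. The part of these cells in the levels of Pdgfra and Cspg4 was not tested.

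Across somata, some members varied in the same direction as Olig1 and others in the opposite direction. As deviations from the group means over the same 12 soma libraries, which share the split by Eif2s3y, the Pearson correlation with Olig1 was 0.76 for Cnp, 0.63 for Olig2, 0.19 for Pdgfra, -0.69 for Cspg4 and -0.78 for Mbp. The Olig2 value rests on 0 to 17 counts per library. With TMM-scaled levels, 727 of 13916 genes, Olig1 itself counted, had a higher correlation with Olig1 than Cnp had. For Mbp, 13126 genes had a higher one. Of 13916 genes, those with a pattern most like Olig1 in these 12 libraries were Acot1, Crtc3, Rcn1, Cxcl14 and Ntsr2, with correlations from 0.961 to 0.975. Those most like Cnp were Sdf4, AC102496.1, Anxa5, Nek6 and Skap2, from 0.943 to 0.955. None of these 10 genes is among the lineage genes listed here. These correlations describe 12 libraries and were not tested.

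Few of the other genes of the lineage passed in stretched somata. Of 16 other precursor genes, 11 were tested and 1 fell, where 13.9% of all genes tested fell and 11.2% rose. Their median log2 fold change was 0.31 against -0.03 over all genes. The gene that fell, Cspg5 (neuroglycan C, a proteoglycan also made by neurons), had a lowest value of 26.0, a median of 53.4 and a highest value of 101 CPM in control somata. With stretch these were 25.1, 35.3 and 47.3 CPM. The control and stretched values overlapped, and the log2 fold change was -0.87 (SE 0.28, edgeR adjusted p 0.0378). The values within the higher and lower sets were -0.91 (edgeR adjusted p 0.0196) and -0.71 (edgeR adjusted p 0.272). Leaving out 1 library at a time, Cspg5 missed the threshold in 9 of 12 fits, with adjusted p up to 0.0896. Sox8, a relative of Sox10 in the same factor family, had 0.702 to 2.96 CPM in control and 1.03 to 3.31 CPM in stretched somata (log2 fold change 0.57, SE 0.36, edgeR adjusted p 0.260). Gpr17, a receptor of committed precursors, reached at most 0.218 CPM and Bcas1, a marker of newly forming oligodendrocytes, at most 0.538 CPM in any soma library, and neither was tested.

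Of 20 other differentiation and myelin genes, 9 were tested and 1 rose, with a median of 0.15, where 11.2% of all genes tested rose. Mog, a protein of the outer myelin surface, had a lowest value of 2.15, a median of 2.67 and a highest value of 4.35 CPM in control somata and 4.22, 4.90 and 5.54 CPM with stretch. The groups touched only at the highest control and the lowest stretched library, and the log2 fold change was 0.73 (SE 0.19, edgeR adjusted p 0.0156). Within the higher and lower sets it was 0.89 and 0.63 (edgeR adjusted p 0.0249 and 0.284). The 4 other PDGF genes were all tested and none passed. They were Pdgfa, the ligand that drives precursor division, with 14.9 to 26.1 CPM in control and 13.7 to 20.6 CPM in stretched somata, the ligands Pdgfb and Pdgfd, and the receptor Pdgfrb.

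Marker lists of other cells were read beside these results. None of 8 astrocyte markers passed in stretched somata. Of 7 microglia markers, 6 were tested and 1 fell, and their summed level was 23 to 47.2 CPM in control and 15.8 to 23.2 CPM in stretched somata. C1qa, a complement gene of microglia, was the marker that fell, by 1.35 on the log2 scale (SE 0.22, edgeR adjusted p 0.00313). Of 8 neuron markers, 2 rose and 3 fell. Over all genes tested for stretch in somata, 11.2% rose and 13.9% fell. The 4 Schwann cell markers, which share myelin genes with the lineage, summed to 3.68 to 9.35 CPM in control and 6.53 to 10.8 CPM in stretched somata, and none passed. The part of these cells in the levels of the members was not tested.

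**Figure D4:**
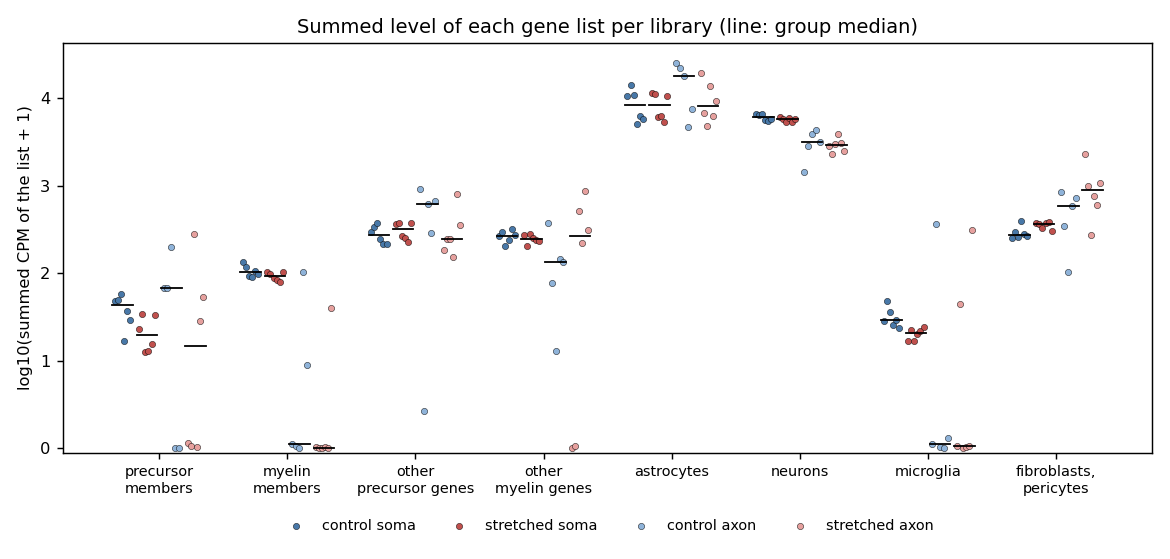
Points give log10 of the summed CPM + 1 of each gene list in each library, by group, with a line at the group median. Myelin members sum to 78.5 to 135 CPM in somata and to near 0 in most axonal libraries, whereas the astrocyte list is as high in axonal as in soma libraries.

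In axons, Olig1, Cnp and Mbp were present in some libraries of a group and had few or no counts in the others. Olig1 had 67.7, 67.4, 197, 0 and 0 CPM in control axons 1, 2, 3, 5 and 7. It had 0, 0, 281, 0, 27.4 and 52.3 CPM in stretched axons 1, 2, 4, 5, 6 and 8. So Olig1 was high in 3 of 5 and 3 of 6 axonal libraries and had no count in the others, with no library between. It was the only member tested for stretch in axons, and differed by -0.05 on the log2 scale (SE 2.77, edgeR adjusted p 1.00). In that comparison 0% of 4947 genes passed, with 46 genes at an unadjusted p under 0.05. DESeq2 called 18 genes there and no member.

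Cnp and Mbp were likewise found in a few axonal libraries. Cnp had 4439 counts (103 CPM) in control axon 5, 207 counts (8.04 CPM) in control axon 7 and 2 counts in control axon 1. In stretched axons it had 1 count in replicate 5 and 1 in replicate 8. The control axons with Cnp above the floor were the ones without Olig1. Mbp had 767 counts (38.8 CPM) in stretched axon 8, 1 count in stretched axon 1 and none in the other 9 axonal libraries. Pdgfra had 1 count in control axon 2 and 4, 1, 1 and 1 counts in stretched axons 1, 2, 4 and 5, Mobp 1 count in control axon 2, and Cspg4, Olig2, Mag and Sox10 none.

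Many genes behaved like this in axonal libraries. Of 7162 genes with 10 to 100 CPM in somata, which is the range of Olig1, Cnp and Mbp, a median of 30.5% had more than 3 counts in an axonal library, and such a gene passed 3 counts in a median of 4 of 11 axonal libraries. Of 4387 genes with 1 to 10 CPM in somata, the range of Pdgfra and Cspg4, a median of 8.78% did. The biological coefficient of variation in the edgeR fits was 0.240 between somata and 2.39 between axonal libraries.

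In control cultures 3 of the 5 members tested were lower in axons than in somata and none was higher, while 35.3% of 14728 genes passed, 34.4% lower and 0.856% higher. Cspg4, with no axonal count, was at least 42.3-fold lower and Mbp at least 96.0-fold lower in axons, against a floor of 3 counts per library. Their adjusted p values in edgeR were 9.5e-06 and 1.7e-05. Pdgfra had 371 counts over 6 somata and 1 over 5 axonal libraries, a ratio of 329 in depth-scaled terms with a counting interval of 58.7 to 13036, and an edgeR adjusted p of 2.0e-05. In each case all 6 somata were above all 5 axonal libraries. The share of all genes with this order was not counted, so the order is not read as particular to these members. The 3 genes entered the test only through their soma counts, so they could pass only as lower in axons. Genes with 1 to 10 CPM in somata passed 3 counts in a median of 1 of 11 axonal libraries. Those with 10 to 100 CPM did so in a median of 4 of 11. Olig1 (log2 fold change 0.83, SE 1.79, edgeR adjusted p 0.876) and Cnp (-2.14, SE 1.99, edgeR adjusted p 0.596) did not pass. Without control axon 5, Cnp passed too (-5.80, edgeR adjusted p 0.0484), in a fit that called 53.6% of all genes. That library held 4439 of the 4648 Cnp counts of control axons. Leaving it out lowers axonal Cnp by construction, so this fit does not bear on whether Cnp was lower in axons.

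In stretched cultures 3 of 5 members were again lower in axons, where 29.3% of 14466 genes passed, 28.4% lower and 0.843% higher. Cspg4 was at least 51.5-fold lower (edgeR adjusted p 2.7e-06). Cnp had 12213 counts in somata and 2 in axons, a ratio of 5295 with a counting interval of 1465 to 43726 (edgeR adjusted p 1.4e-05). Pdgfra had 387 and 7 counts, a ratio of 47.9 with an interval of 23 to 120 (edgeR adjusted p 1.9e-05). For these 3 genes all 6 somata were above all 6 axonal libraries. The share of all genes with this order was not counted, so the order is not read as particular to these members. The 3 genes entered the test only through their soma counts, so they too could pass only as lower in axons. Olig1 (1.96, SE 2.08, edgeR adjusted p 0.724) and Mbp (-1.28, SE 2.13, edgeR adjusted p 0.874) did not pass. Without stretched axon 8 Mbp did (-10.46, edgeR adjusted p 3.5e-06), in a fit that called 43.3% of all genes. That library held 767 of the 768 Mbp counts of stretched axons. Leaving it out lowers axonal Mbp by construction, so this fit does not bear on whether Mbp was lower in axons. Whether the axon-to-soma difference of any member changed with stretch was not tested.

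The scale of these comparisons shifts with the normalization. The median log2 fold change of all genes was -1.40 in control and -1.13 in stretched cultures with TMM factors. With total counts only it was -1.27 and -0.73. In each case 3 members passed, and with total counts only 35.5% and 29.9% of all genes did. Of the other lineage genes, 4 of 11 precursor genes and 2 of 8 myelin genes tested were lower in control axons. In stretched axons 4 of 10 and 3 of 7 were lower, and none was higher in either condition. The lower genes included Sox8 in both conditions and Mog in stretched cultures. Sox8 had no count in either axonal group and Mog none in stretched axons, so there they could pass only as lower. Among all genes tested, 34.4% were lower and 0.856% higher in control axons, and 28.4% lower and 0.843% higher in stretched axons. Of the PDGF genes, Pdgfb and Pdgfrb were lower in axons in both conditions. The astrocyte markers summed to 4651 to 25629 CPM in control and 4790 to 19604 CPM in stretched axons, and none of the 8 passed between axons and somata in either condition.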

How the data were processed

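RNA of 23 libraries was analysed. The authors deposited whole-number read counts per gene for each library. Per the submitters' processing notes, FastQC 0.11.9, MultiQC 1.12, fastp 0.20.1, STAR 2.7.08a, HTSeq 0.13.5 and the mm10 genome were used. Amplified cDNA was made from poly(A) RNA, per the labels' protocols, and libraries carried molecular identifiers. Whether these were used to remove duplicates, the strand setting and the annotation are not given in the sources used here. Amplified reads are not independent molecules, so intervals and floors cover counting error only.

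Symbols were matched by ID (55141 of 55487). Rows of uncounted reads were left out. CPM are counts per 1000000 counts of the library. Each comparison was fitted on its own libraries with edgeR 4.0.16 in R 4.3.3 (filterByExpr, TMM, robust quasi-likelihood F test), with Benjamini-Hochberg adjustment over all genes tested and a threshold of 0.05. The SE is the fold change over the square root of F. The scripts were tested on simulated data, whose spread was set lower than that found in the comparisons with axonal libraries. This test therefore does not show how the axonal comparisons perform. Intervals of count ratios are exact at 95%. Upstream sequences come from RefSeq (GRCm38.p6), which matched 6 of the 9 genes. Exons come from GENCODE.

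The members, lists and tests were chosen with earlier results of these data known. All 9 members are named. Gpr17, Sox8 and Bcas1 are always given from the lists of 16 other precursor and 20 other myelin genes, with those that passed for stretch in somata. A further gene that the rule always gives is not reported here. Genes most like the member with the highest soma level in each class were the 5 with the highest correlation. Trf and Vcan were named after their values were seen, as were the genes of the marker and PDGF lists given with values. Marker lists covered astrocytes, microglia, fibroblasts and pericytes, endothelial cells, neurons and Schwann cells. The 4 endothelial markers summed to 2.35 to 8.86 CPM in somata, with none changed by stretch. Alternatives were other scalings, no filter, DESeq2 1.42.0, the replicate number as a block, the Eif2s3y sets, offsets for length and GC content (mgcv 1.9.3), thinning and leaving out each library. The fits of the lower set without control soma 4 and of the block's libraries without the block were added after the data were seen.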

Additional observations from a re-analysis of the deposited data

Results flagged for a closer look

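In 24 groups of 5 or 6 libraries with a count of a member, 6 had 1 library set apart from the rest by more than Dixon's 95% limit. Chance flags about 1 in 20 groups, but a single count in a group otherwise at 0 always meets this limit, so that rate does not apply to these groups. Olig1 was 281 CPM in stretched axon 4, with 52.3 CPM in the next library. Cnp was 103 CPM in control axon 5, with 8.04 CPM in the next. Mbp was 38.8 CPM in stretched axon 8, with 1 count in 1 of the other 5. The other 3 were single counts in groups otherwise at 0: Pdgfra and Mobp at 0.0499 CPM in control axon 2, and Mobp at 0.0421 CPM in control soma 6.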

How the results depend on the processing

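The count of members that passed for stretch in somata was 0, and it was 0 to 2 when 1 library was left out (2 without control soma 4), 2 with the Eif2s3y set as covariate, 1 in the higher set alone and 2 in the lower set without control soma 4. With the replicate block it was 2, with 20.7% of all genes called (Olig1 -1.82, edgeR adjusted p 0.0438, and Cnp -0.38, edgeR adjusted p 0.0288), and with block and offsets 0, with 13.2% called. Same-numbered somata had a mean correlation of deviations of 0.226, lowest 0.00296 and highest 0.397, over 5 pairs, against -0.036 for other pairs. Every shared number lies within an Eif2s3y set, while the other pairs include those across sets. Different-numbered pairs within a set ranged from -0.094 (control 6 with stretched 5) to 0.487 (control 3 with stretched 2). Since not every same-numbered pair correlated, the numbers were not taken to pair libraries. For stretch in axons the block fit tested no member. Between stretched axons and somata it also called Mbp (-10.01, edgeR adjusted p 0.00859), with 53.1% of all genes called. With no filter 5 of 8 members were lower in control axons than somata, with 35.5% of all genes called, and 3 to 4 of 5 with 1 library left out, with 32.1% to 53.6% called. At more than 3 counts, mean detection was 5.83 members in control somata and 0.833 in stretched axons. Signs that turned belong to values that did not pass. For stretch in somata, Pdgfra ranged from -0.22 to 0.35 with 1 library left out and was 0.26 in the higher set. Mbp ranged from -0.019 to 0.24, and was -0.0154 in the lower set, -0.0228 in that set without control soma 4, -0.037 with length and GC offsets and -0.056 with block and offsets. Olig1 ranged from -1.87 to 0.97 for stretch in axons and from -0.28 to 1.15 between control axons and somata. With the block it was -0.24 between control and -3.57 between stretched axons and somata. The cause was not tested. Olig2, Mag and Mobp had too few counts for the filter, and Sox10 had none.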

Other observations

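Other lineage genes also reached high levels in single axonal libraries. Trf, the iron carrier transferrin that oligodendrocytes make in the brain, had counts in 4 of 6 stretched axons, at up to 728 CPM, against 76.2 to 127 CPM in stretched somata. Vcan, a matrix proteoglycan of precursors, had 242 CPM in 1 of 5 control axons and 0 counts in all 6 stretched axons, where somata had 22.9 to 28.3 CPM.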
